A study of Mus musculus with 8 samples.

Results

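SRC-3 knockout regulatory T cells (Tregs) sorted as YFP+ were compared with Tregs from mice carrying a floxed SRC-3 allele. The measure was the deposited gene table in FPKM, a level scaled to transcript length and to the mapped fragments of a library, and genes entered when 2 or more of the 8 libraries reached 1 FPKM. That choice left 14134 of the 55487 genes in the table and set 2 libraries against 2, that is 4 of the 8 libraries of the series. The KO YFP+ group, numbers 84 and 85, had the genotype SRC-3 KO, the cell type Tregs YFP+ and a mixed background of C57BL/6 and 129SvEv. The SRC-3ff group, numbers 68 and 72, is the second wild-type control, with the cell type given as Tregs without a YFP sort and the strain 129SvEv. The remaining libraries, used for the error estimate and as side values, were YFP+ Tregs of the C57BL/6 control (WT YFP+, numbers 23 and 24) and YFP- Tregs from the knockouts (KO YFP-, numbers 84 and 85). All cells came from spleens of tumor-free mice, and total RNA was turned into libraries with a low-input SMART-Seq v4 kit. The labels give no age or sex, do not state what YFP marks, and do not say which stretch of the gene is deleted or whether mice were pooled. Because genotype, strain and sort all differ between KO YFP+ and SRC-3ff in every library, their parts in any difference cannot be told apart.

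SRC-3, encoded by Ncoa3, is a coactivator that nuclear receptors and other transcription factors recruit to chromatin, where it brings in acetyltransferases and methyltransferases. Tregs are CD4 T cells that restrain immune responses and are defined by the forkhead factor Foxp3. In the spleen, resting Tregs keep lymph-node homing receptors such as Ccr7, whereas effector Tregs carry tissue-homing receptors, integrins and effector molecules.

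Library totals lay between 384107 and 416393 FPKM, and 12573 to 13251 genes reached 1 FPKM in a library. FPKM are not counts, so the depth behind each value is unknown and no interval for counting error is given. On log2(FPKM + 1), the 2 KO YFP+ libraries correlated at 0.9750 and the 2 SRC-3ff libraries at 0.966, across genes. KO YFP+ against SRC-3ff 68 gave 0.938, and against SRC-3ff 72 it gave 0.901. The test was limma on log2(FPKM + 1) over all 8 libraries in 4 groups, with Benjamini-Hochberg adjustment over the 14134 genes and a threshold of 0.05, and differences below are KO YFP+ minus SRC-3ff on that scale with limma's standard error. This scale understates the change of low genes. With 2 libraries a group, exact permutation p-values cannot fall below 0.333, so no single value was tested that way. The labels do not say that libraries of a group came from separate mice, and p-values then measure only the spread between these libraries, which may be technical. Each call was refitted under 13 alternatives, 4 of which leave out 1 of the libraries compared. Of the 14134 genes, 1448 (10.2%) passed the threshold, 587 higher (4.15%) and 861 lower (6.09%) in KO YFP+, and for 61.0% of all genes the libraries of the groups did not overlap. Counts of list members are to be read against these shares. Of the 861 lower genes, 264 were under 1 FPKM in both KO YFP+ libraries, so they met the filter through other groups. Likewise, 30 of the 587 higher genes were under 1 FPKM in both SRC-3ff libraries. For such genes the filter bears on the direction.

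The targeted gene was lower in KO YFP+. Ncoa3 (chr2:165992636-166073242, GRCm38) stood at 10.9 and 10.2 FPKM in KO YFP+ 84 and 85 and at 49.7 and 35.4 FPKM in SRC-3ff 68 and 72. It was at 46.3 and 42.7 FPKM in WT YFP+ and 32.1 and 32.2 FPKM in KO YFP-. Both KO YFP+ values lay below those of the other 6 libraries, with a log2 difference from SRC-3ff of -1.90 ± 0.16 (SE), adjusted p = 0.00269. The SRC-3ff mean was 4.05 times the KO YFP+ mean, and FPKM per gene do not show which exons the remaining signal covers. The related coactivators Ncoa1 (10.7 and 7.07 against 13.4 and 9.38 FPKM) and Ncoa2 (15.9 and 10.1 against 15.99 and 16.3 FPKM) did not pass, at adjusted p of 0.366 and 0.413. Among 24 measured members of the SRC family and its partners, 0 were higher and 3 were lower, including Ncoa3 itself, beside 6.09% lower among all genes tested. Another was Psme3, a proteasome activator known as a partner in SRC-3 turnover (52.2 and 49.4 against 68.4 and 66.5 FPKM). The remaining lower member was under 1 FPKM in both KO YFP+ libraries and met the filter through other groups. Ncoa3 passed under all 13 alternatives. The call was lost for Psme3 without KO YFP+ 84, KO YFP+ 85, SRC-3ff 68 or SRC-3ff 72, at adjusted p of 0.106 to 0.181. Other settings that ended the call on Psme3 were fits with no filter on low values, with only the 4 libraries fitted, with no trend and with quantile normalization (adjusted p of 0.0504 to 0.0898).

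The label Treg was checked against defining markers. Cd4 (186 and 162 against 168 and 144 FPKM) and the Treg receptor genes Il2ra (95.7 and 92.4 against 107 and 83.1 FPKM) and Ctla4 (68.4 and 65.3 against 82.8 and 75.98 FPKM) were present at levels that did not pass the test. Foxp3 itself was not level between the groups. It stood at 21.02 and 22.9 FPKM in KO YFP+ 84 and 85 and at 205 and 151 FPKM in SRC-3ff 68 and 72, and WT YFP+ was at 30.95 and 19.9 FPKM against 161 and 113 FPKM in KO YFP-. The KO YFP+ libraries lay far below SRC-3ff (-2.95 ± 0.26 (SE), adjusted p = 0.00319) and their range fell within that of WT YFP+ (adjusted p = 0.870). Of 22 measured genes of Treg identity, 1 was higher and 3 were lower, beside 4.15% higher and 6.09% lower over all genes tested. The median log2 difference was 0.11 beside -0.016 over all genes tested. The higher member was Ikzf4, the zinc-finger factor Eos (27.4 and 23.2 against 16.2 and 12.3 FPKM, 0.79 ± 0.16). Lower members beside Foxp3 were the integrin chain Itgae (15.7 and 14.97 against 37.7 and 72.2 FPKM) and the galectin Lgals1 (150.2 and 134 against 254 and 464 FPKM). Ikzf2, which encodes Helios, was at 28.5 and 25.9 against 19.5 and 11.8 FPKM and did not pass (adjusted p = 0.0796). Foxp3 passed under all 13 alternatives. Significance was lost for Itgae, Ikzf4 and Lgals1 without KO YFP+ 84 or KO YFP+ 85 and for Ikzf4 and Lgals1 without SRC-3ff 72, at adjusted p of 0.0713 to 0.148. Fits with no filter on low values and with only the 4 libraries fitted also ended calls on Itgae, Ikzf4 and Lgals1 (adjusted p of 0.0571 to 0.116).

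Markers of other lymphoid and myeloid cells differed as well. All 12 measured markers of gamma-delta and NKT cells were lower in KO YFP+, beside 6.09% of all genes tested. Of the 12, 6 were under 1 FPKM in both KO YFP+ libraries and met the filter through other groups. Their summed level was 19.97 and 22.3 FPKM in KO YFP+, 348 and 718 FPKM in SRC-3ff, 20.03 and 19.3 FPKM in WT YFP+ and 429 and 763 FPKM in KO YFP-. The gamma-chain constant gene Trgc2 was at 1.32 and 1.86 FPKM in KO YFP+ 84 and 85 and at 68.2 and 136 FPKM in SRC-3ff 68 and 72, and Sox13, a factor of gamma-delta T cells, was at 0.0846 and 0.192 against 11.4 and 27.6 FPKM. Blk, a Src-family kinase of B cells and gamma-delta T cells, was at 0.0974 and 0.163 against 29.8 and 62.1 FPKM, a log2 difference of -5.29 ± 0.32 (SE), adjusted p = 0.00151. Sox13 and Blk passed under all 13 alternatives. Trgc2 passed under the 12 alternatives that tested it. In bulk libraries, fewer cells of a type and less RNA per cell cannot be told apart.

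Part of the measured markers of NK, plasma, B and myeloid cells were lower as well, beside 6.09% lower among all genes tested. Of 12 measured NK markers, 8 were lower and 0 higher, and these 8 were all under 1 FPKM in both KO YFP+ libraries, with sums of 66.5 and 49.1 FPKM in KO YFP+ and 161 and 232 FPKM in SRC-3ff, and Ncr1 was listed at 0 in both KO YFP+ libraries against 2.19 and 4.48 FPKM in SRC-3ff. Fcer1g, the signalling chain shared by NK and myeloid cells, was at 0.0646 and 0.0591 against 19.97 and 21.3 FPKM (-4.35 ± 0.16 (SE), adjusted p = 0.000364). Of 13 plasma cell markers, 6 were lower, with sums of 159 and 171 against 466 and 1078 FPKM, and Jchain, which joins polymeric antibody, was at 22.4 and 29.3 against 266 and 790.05 FPKM. Jchain alone thus made up most of the SRC-3ff sums. B cell markers summed to 26.3 and 28.0 against 72.5 and 145 FPKM, with 2 of 8 measured members lower (Blk and Pou2af1) and 6 not called. Blk alone gave 29.8 and 62.1 FPKM of the SRC-3ff sums. Of 8 measured myeloid markers, 5 were lower and their sums were 83.4 and 95.1 against 144 and 227 FPKM. Under 1 FPKM in both KO YFP+ libraries were 3 of the 5 lower myeloid, 2 of the 6 lower plasma cell and 1 of the 2 lower B cell markers. Those met the filter through other groups. In each of these lists both SRC-3ff libraries lay above both KO YFP+ libraries and SRC-3ff 72 lay above SRC-3ff 68, as the plot of marker sums shows. Sums of CD8 T cell markers went the other way, at 90.4 and 84.7 against 65.3 and 75.4 FPKM, with 1 of 6 measured members higher and 1 lower. Those of conventional CD4 T cell markers did so too, at 844 and 761 against 722 and 704 FPKM, with 3 of 11 members higher and 1 lower. Of 4 measured erythroid and platelet markers none was called, with sums of 2.29 and 1.63 against 4.32 and 23.3 FPKM. The lists share members, so their counts are not separate. Blk counts as a B cell and a gamma-delta marker, and Fcer1g and Tyrobp count as NK and myeloid markers. Klrb1c is in the NK and the gamma-delta and NKT lists, and Klrc1 is in the NK and CD8 lists. The called CD4 markers Ccr7, Lef1, Igfbp4 and Il7r are also in the quiescence and homing list below. The part of the marker transcripts in the differences below was not tested. Lower calls numbered 8, 8, 12 and 8 for gamma-delta and NKT markers, 2, 2, 7 and 4 for NK markers, 1, 1, 7 and 1 for plasma cell markers, 1, 1, 6 and 1 for B cell markers and 2, 1, 4 and 3 for myeloid markers without KO YFP+ 84, KO YFP+ 85, SRC-3ff 68 and SRC-3ff 72 in turn. In the same order of lists, the other 9 alternatives gave 8 to 12, 4 to 10, 1 to 8, 1 to 5 and 3 to 5. Fcer1g passed under all 13 alternatives. The call ended for Ncr1, Jchain and Pou2af1 without KO YFP+ 84 or KO YFP+ 85 and for Jchain and Pou2af1 without SRC-3ff 72 (adjusted p of 0.0518 to 0.162). Calls on Jchain and Pou2af1 were also lost with no filter on low values and with only the 4 libraries fitted (each under at least 1 of them, adjusted p of 0.0546 to 0.104).

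**Figure D1:**
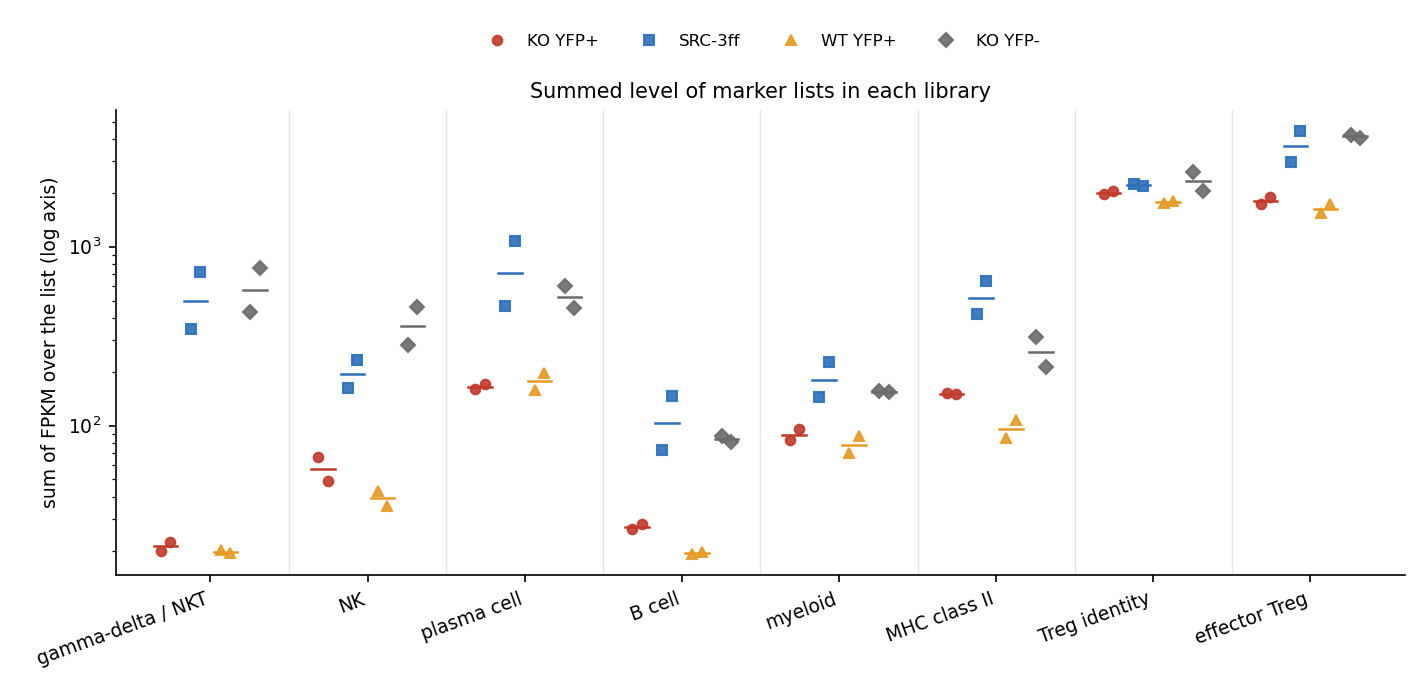
Summed FPKM (log axis) of 8 gene lists in each of the 8 libraries, with points for libraries and short lines for the geometric mean of a group. Gamma-delta and NKT markers sum to 19.97 and 22.3 FPKM in KO YFP+ and to 348 and 718 FPKM in SRC-3ff, whereas Treg identity genes sum to 1969 and 2037 against 2244 and 2189 FPKM.

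Among the 1448 calls, the lower ones were the larger, with a median of -1.17 against 0.71 for the higher calls, and 502 lower genes but 106 higher genes differed by at least 1 on the log2 scale. The higher share of calls was 40.5%, and it was 28.3% (439 higher, 1111 lower) when immunoglobulin and T cell receptor segments were left out and each library rescaled. Quantile normalization gave 49.4% (689 higher, 705 lower) and median-of-ratios scaling 44.1%, so the balance of directions depends on the scaling. The same fit called 107 genes (0.757%) between KO YFP+ and WT YFP+, 693 (4.90%) between KO YFP+ and KO YFP-, 1303 (9.22%) between WT YFP+ and SRC-3ff and 91 (0.644%) between KO YFP- and SRC-3ff. These comparisons share libraries with the main one and are given side by side only. Without KO YFP+ 84, KO YFP+ 85, SRC-3ff 68 or SRC-3ff 72, the 1448 calls became 310, 215, 1061 and 229, and 146 of the 1448 genes, 18 higher and 128 lower, passed in each of these 4 fits. Only the 4 libraries fitted alone gave 537 calls, and no filter on low values gave 567.

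**Figure D2:**
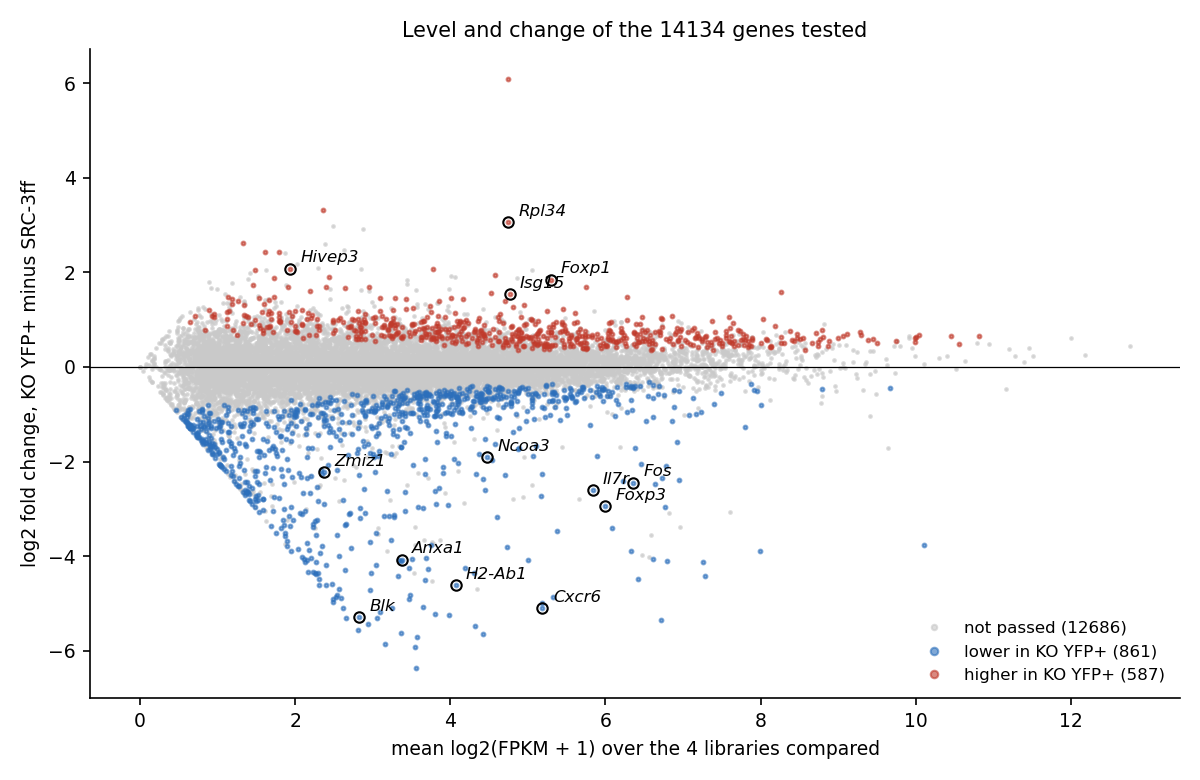
Difference between KO YFP+ and SRC-3ff (log2) against the mean log2(FPKM + 1) of the 4 libraries compared, one point per gene tested. Red points are the 587 genes higher and blue points the 861 genes lower in KO YFP+, with Foxp1 and Isg15 above the line and Fos, Foxp3, Ncoa3 and Cxcr6 below it.

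Among called genes with a group mean of 5 FPKM and no overlap, leaving out receptor segments, pseudogenes and predicted genes, the largest higher difference was that of Rpl34, a ribosomal protein of the large subunit, at 75.8 and 76.8 FPKM in KO YFP+ 84 and 85 and at 9.70 and 6.999 FPKM in SRC-3ff 68 and 72 (3.06 ± 0.26 (SE), adjusted p = 0.00272). Its levels were 122 and 69.2 FPKM in WT YFP+ and 62.9 and 63.2 FPKM in KO YFP-, so SRC-3ff alone was low among the 4 groups. The gene has near-identical copies in the genome, which makes its value uncertain. Hivep3, a zinc-finger factor of the Schnurri family, was at 7.31 and 6.46 against 0.686 and 1.05 FPKM. With 6.07 and 8.98 FPKM in WT YFP+ and 7.41 and 9.60 FPKM in KO YFP-, SRC-3ff alone was low for Hivep3 too. Tmie, a membrane protein of hearing mechanotransduction, was at 9.24 and 9.69 against 1.80 and 1.77 FPKM. Prg4, the secreted proteoglycan lubricin, was at 12.3 and 13.5 against 4.05 and 2.63 FPKM. Rgs10, a regulator of G-protein signalling, was at 99.3 and 91.05 against 35.6 and 23.4 FPKM and was the most abundant of these. Mcub, which dampens the mitochondrial calcium uniporter, was at 9.59 and 10.7 against 2.48 and 2.54 FPKM. Their log2 differences ran from 1.67 to 3.06. Rpl34, Hivep3, Tmie and Mcub passed under all 13 alternatives. Adjusted p rose past the threshold for Rgs10 without KO YFP+ 84 and for Prg4 and Rgs10 without KO YFP+ 85 (0.0517 to 0.0545).

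By the same rule, the largest lower differences after Blk were those of the chemokine receptor Cxcr6, of Klrk1, which encodes the activating receptor NKG2D (0.0239 and 0.0835 against 23.95 and 51.1 FPKM), and of the galectin Lgals3. Several are known from innate-like lymphocytes. Cd163l1, a scavenger receptor known from gamma-delta T cells, was at 0 and 0.361 against 16.02 and 52.9 FPKM, and Il17re, a receptor chain for IL-17C, was at 0.0371 and 0.0529 against 13.96 and 21.5 FPKM. Tmem176a, a membrane channel of lymphoid and myeloid cells, was at 2.72 and 3.67 against 59.5 and 104 FPKM. The potassium channel gene Kcnk1 was at 0.0296 and 0.0612 against 15.8 and 31.8 FPKM, and Sdc1, the plasma cell surface proteoglycan CD138, was at 0.0474 and 0.458 against 15.9 and 28.96 FPKM. In each of these genes KO YFP- was also high, for example 25.7 and 49.3 FPKM for Klrk1 and 6.26 and 16.1 FPKM for Il17re, and WT YFP+ was low (0.0359 and 0.00794 FPKM and 0.0890 and 0.156 FPKM). Their log2 differences ran from -4.19 for Sdc1 and -4.13 for Il17re to -5.10 for Klrk1. Blk, Klrk1, Cd163l1, Il17re, Kcnk1 and Sdc1 were under 1 FPKM in both KO YFP+ libraries. They met the filter through SRC-3ff and KO YFP-, where they were high, so the filter bears on their direction. Klrk1, Cd163l1, Il17re, Tmem176a, Kcnk1 and Sdc1 passed under all 13 alternatives.

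Foxp1, a forkhead factor that maintains naive T cell quiescence, was higher in KO YFP+. It stood at 69.99 and 76.99 FPKM in KO YFP+ 84 and 85 and at 16.8 and 23.01 FPKM in SRC-3ff 68 and 72, a log2 difference of 1.85 ± 0.15 (SE), adjusted p = 0.00212. WT YFP+ was at 78.2 and 81.6 FPKM (adjusted p = 0.829 against KO YFP+), and KO YFP- was at 29.4 and 28.7 FPKM (adjusted p = 0.00642). Both YFP+ groups were thus high and both other groups low. Of the 27 measured genes of quiescence and lymph-node homing, 6 were higher and 1 was lower, with a median log2 difference of 0.18. Over all genes tested, 4.15% were higher and 6.09% lower. Ccr7, the receptor that guides cells into lymph nodes, was at 392 and 392 against 244 and 191 FPKM (0.86 ± 0.14), and Id3, an inhibitor of E proteins, was at 129 and 125 against 64.95 and 56.1 FPKM (1.06 ± 0.16). Itga6, an integrin chain of resting T cells, was at 45.8 and 42.3 against 26.96 and 25.5 FPKM, and the TCF-family factor Lef1 was at 115 and 93.2 against 75.4 and 60.7 FPKM. The sixth was Igfbp4, a binding protein of insulin-like growth factors (15.02 and 11.2 against 6.63 and 6.90 FPKM).

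The lower member was Il7r, the IL-7 receptor chain that Tregs carry at low levels, at 17.6 and 27.6 FPKM in KO YFP+ 84 and 85 and at 111 and 176 FPKM in SRC-3ff 68 and 72 (-2.61 ± 0.32 (SE), adjusted p = 0.00749). WT YFP+ was at 15.3 and 21.9 FPKM and KO YFP- at 79.7 and 116 FPKM. The quiescence factor Klf2 (221 and 234 against 195 and 186 FPKM), S1pr1 (188 and 166 against 167 and 164 FPKM) and Tcf7 (256 and 190.5 against 219.5 and 195 FPKM) did not pass, at adjusted p of 0.0858, 0.620 and 0.771. Higher calls of this list numbered 1, 1, 7 and 1 without KO YFP+ 84, KO YFP+ 85, SRC-3ff 68 and SRC-3ff 72 in turn. They numbered 1 to 6 in the other 9 alternatives. Foxp1 and Il7r passed under all 13 alternatives. The call was lost for Ccr7, Id3, Itga6, Lef1 and Igfbp4 without KO YFP+ 84, KO YFP+ 85 or SRC-3ff 72 and for Igfbp4 without SRC-3ff 68, at adjusted p of 0.0697 to 0.191. Other settings that ended calls on Ccr7, Id3, Itga6, Lef1 and Igfbp4 were fits with no filter on low values, with only the 4 libraries fitted, with no trend, with the replicate block, with quantile normalization and with receptor segments left out (each under at least 1 of them, adjusted p of 0.0517 to 0.115).

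**Figure D3:**
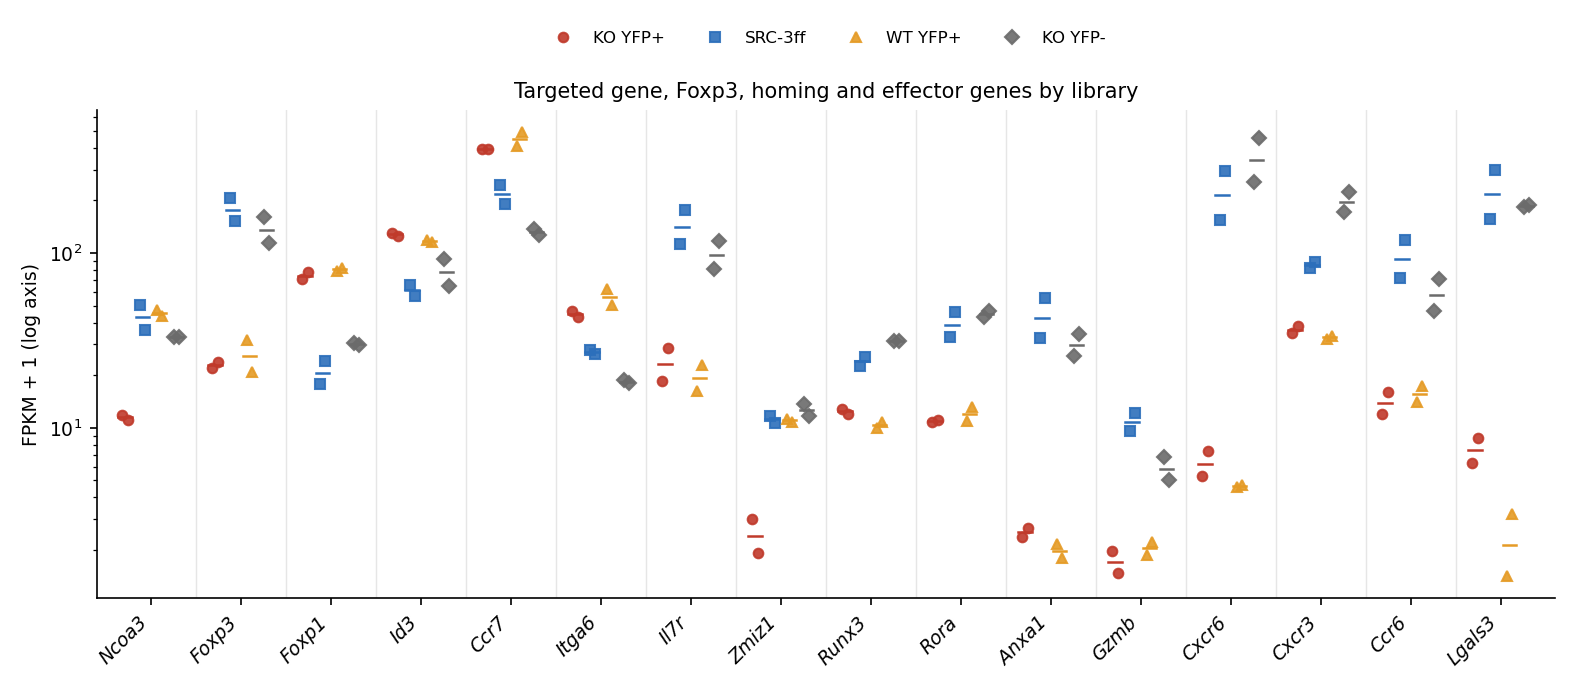
FPKM + 1 (log axis) of 16 genes in each library, with points for libraries and short lines for the geometric mean of a group. Ncoa3 and Zmiz1 are low in KO YFP+ alone among the 4 groups, while Foxp3, Il7r, Anxa1, Cxcr6 and Lgals3 are low and Foxp1 and Ccr7 high in both YFP+ groups.

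Fos, a subunit of the AP-1 transcription factor that cells induce within minutes of stimulation, was lower in KO YFP+. It stood at 35.2 and 32.96 FPKM in KO YFP+ 84 and 85 and at 179 and 203 FPKM in SRC-3ff 68 and 72, a log2 difference of -2.45 ± 0.13 (SE), adjusted p = 0.000973. Both knockout groups were low, since KO YFP- was at 39.5 and 32.4 FPKM (adjusted p = 0.850 against KO YFP+) and WT YFP+ at 112 and 96.4 FPKM (adjusted p = 0.00391). Of 33 measured early-response genes, 12 were lower and 0 were higher, with a median log2 difference of -0.38, beside 6.09% lower among all genes. Jun, the partner of Fos in AP-1, was at 112 and 102 against 198 and 219 FPKM (-0.95 ± 0.13), and Junb was at 381 and 369 against 539 and 495 FPKM. Klf4, a zinc-finger factor of T cell quiescence, was at 0.202 and 0.342 against 3.02 and 3.03 FPKM. The plot of early-response genes gives all 12, of which 2 were under 1 FPKM in both KO YFP+ libraries.

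Feedback regulators were among the lower genes. Dusp1, a phosphatase that switches off MAP kinases, was at 66.6 and 71.5 against 231 and 189 FPKM (-1.59 ± 0.21), and Dusp5, a phosphatase of ERK, was at 18.3 and 18.4 against 28.9 and 30.9 FPKM. Ppp1r15a, which directs a phosphatase to the initiation factor eIF2-alpha, was at 44.7 and 43.7 against 74.4 and 65.4 FPKM. The deubiquitinase gene Tnfaip3, a brake on NF-kappaB, was at 21.6 and 18.8 against 37.8 and 32.2 FPKM, and the activation marker Cd69 was at 29.2 and 33.9 against 46.9 and 47.9 FPKM. In none of these genes did the groups overlap, as in 61.0% of all genes. Egr1 (34.9 and 22.8 against 40.8 and 33.4 FPKM), Nr4a1 (47.2 and 38.01 against 47.6 and 34.3 FPKM), Nfkbia (244 and 269 against 264 and 230.4 FPKM) and Myc (79.9 and 73.2 against 71.8 and 66.8 FPKM) did not pass, with adjusted p from 0.367 to 0.879. Lower calls of the list numbered 4, 3, 8 and 4 without KO YFP+ 84, KO YFP+ 85, SRC-3ff 68 and SRC-3ff 72 in turn. The other 9 alternatives gave 5 to 12. Fos passed under all 13 alternatives. Klf4 passed under the 12 alternatives that tested it. Significance was lost for Dusp1, Ppp1r15a, Dusp5, Tnfaip3, Cd69 and Junb without KO YFP+ 84, for the other called genes given without KO YFP+ 85, for Tnfaip3, Cd69 and Junb without SRC-3ff 68 and for Jun, Dusp5, Tnfaip3, Cd69 and Junb without SRC-3ff 72, at adjusted p of 0.0577 to 0.176. Fits with no filter on low values, with only the 4 libraries fitted, with no trend and with the replicate block also ended calls on Dusp1, Tnfaip3, Cd69 and Junb (each under at least 1 of them, adjusted p of 0.0503 to 0.115).

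**Figure D4:**
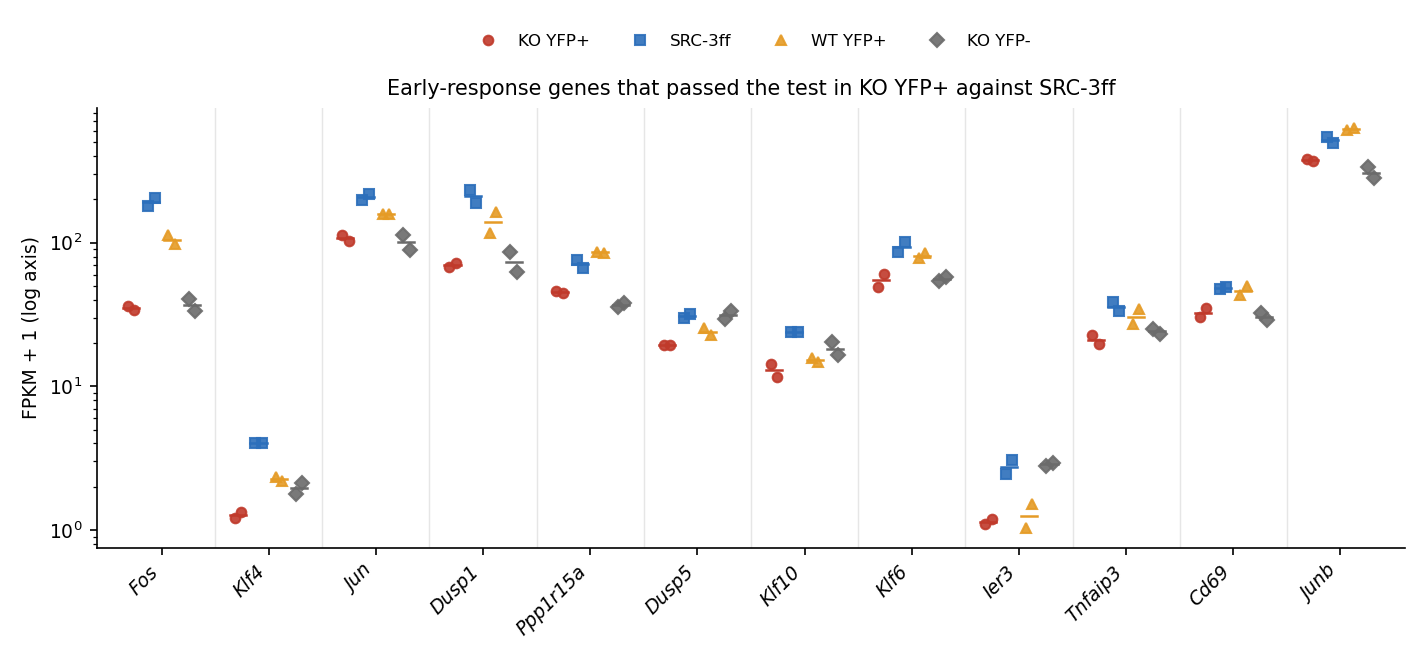
FPKM + 1 (log axis) of the 12 early-response genes that were lower in KO YFP+ than in SRC-3ff, in each of the 8 libraries. Fos is at 35.2 and 33.0 FPKM in KO YFP+ and 39.5 and 32.4 FPKM in KO YFP-, against 179 and 203 FPKM in SRC-3ff.

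AP-1 and CREB are known to drive many early-response genes, so promoters of the lower members were searched on both strands, over the 250 bases before the start, for the cyclic AMP element TGACGTCA and the AP-1 site TGANTCA. Sequences came from RefSeq on GRCm38.p6, which held a promoter for 10 of the 12 genes. The cyclic AMP element was found in 2 of the 10, beside 478 of all 27025 genes with a promoter (1.77%). The AP-1 site was found in 1 of the 10, Tnfaip3, beside 2113 genes (7.82%). Of the 16 early-response genes with a promoter that did not pass, 1 held the cyclic AMP element (Btg2) and 1 the AP-1 site (Csrnp1). The windows of the 2 lower genes with the cyclic AMP element follow, read 5′ to 3′ on the gene's strand, with the element in capitals. Such a match describes the letters of the window and nothing further.
Dusp1 (chr17:26508583-26508640, minus strand): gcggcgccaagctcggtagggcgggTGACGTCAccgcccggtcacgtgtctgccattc
Ppp1r15a (chr7:45526269-45526305, minus strand): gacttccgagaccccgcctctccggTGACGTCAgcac

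Isg15, the ubiquitin-like modifier that interferons induce, was higher in KO YFP+. It stood at 51.3 and 39.95 FPKM in KO YFP+ 84 and 85 and at 16.7 and 13.4 FPKM in SRC-3ff 68 and 72, a log2 difference of 1.54 ± 0.17 (SE), adjusted p = 0.00592. WT YFP+ was at 31.4 and 29.9 FPKM and KO YFP- at 38.3 and 30.3 FPKM, between the groups compared, and neither passed against KO YFP+ (adjusted p = 0.350 and 0.282). Of 46 measured interferon-stimulated genes, 11 were higher and 0 lower, with a median log2 difference of 0.52, beside 4.15% higher among all genes. Sums over the list were 3622 and 3663 FPKM in KO YFP+ and 2827 and 2641 FPKM in SRC-3ff. They were 3322 and 3528 FPKM in WT YFP+ and 3354 and 3208 FPKM in KO YFP-, so SRC-3ff was the lowest of the 4 groups. Stat2, a transcription factor that carries interferon signals, was at 26.8 and 21.5 against 12.6 and 11.5 FPKM (0.94 ± 0.14). Usp18, the protease that removes ISG15 and damps the receptor, was at 37.5 and 39.3 against 18.2 and 8.37 FPKM. Irf7 was at 25.9 and 24.02 against 15.8 and 14.7 FPKM, and Xaf1, a pro-apoptotic interferon target, was at 12.98 and 13.5 against 5.47 and 3.11 FPKM. Bst2, which encodes the antiviral protein tetherin, was at 95.3 and 87.4 against 66.3 and 52.9 FPKM. KO YFP+ lay above SRC-3ff without overlap in all 6 of these genes, as the groups did in 61.0% of all genes.

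Genes typical of the response to interferon gamma were higher as well, with a median of 0.56 and 0 lower. Higher calls made up 7 of 18, beside 4.15% of all genes. They included the immunity-related GTPases Igtp (276 and 273 against 158 and 132 FPKM, 0.92 ± 0.12), Irgm1 (89.9 and 77.02 against 52.1 and 48.5 FPKM) and Tgtp1 (71.4 and 60.3 against 37.6 and 31.03 FPKM). Tgtp1 and Tgtp2 are near-identical copies whose reads can be split between them, so each is uncertain alone. The transcription factor Irf1 was at 75.6 and 73.5 against 48.9 and 43.1 FPKM, and the guanylate-binding protein gene Gbp2 was at 70.04 and 58.2 against 39.3 and 36.1 FPKM. The ligand Ifng went the other way, at 0.861 and 0.736 against 3.68 and 6.51 FPKM (-1.72 ± 0.28), beside 5.62 and 8.80 FPKM in KO YFP-. The receptor genes Ifnar1 (45.2 and 49.7 against 50.1 and 40.5 FPKM), Ifnar2 (45.97 and 48.6 against 52.7 and 40.04 FPKM) and Ifngr1 (119 and 157 against 187 and 169 FPKM) did not pass. Not every interferon target passed. Ifit3, for example, was at 27.9 and 12.7 against 7.36 and 3.13 FPKM and Ifit1 at 23.9 and 13.3 against 8.43 and 4.89 FPKM, with adjusted p of 0.0755 and 0.0635, and their KO YFP+ libraries differed widely. Higher calls numbered 1, 2, 10 and 2 among interferon-stimulated genes and 0, 0, 7 and 0 in the interferon gamma list without KO YFP+ 84, KO YFP+ 85, SRC-3ff 68 and SRC-3ff 72 in turn. In the same order of lists, the other 9 alternatives gave 3 to 12 and 1 to 9. Isg15 passed under all 13 alternatives. The call ended for the other called genes given without KO YFP+ 84, for the other called genes given except Stat2 without KO YFP+ 85, for Irf7 and Gbp2 without SRC-3ff 68 and for the other called genes given except Xaf1 without SRC-3ff 72 (adjusted p of 0.0505 to 0.189). Calls on those genes except Stat2 and Igtp were also lost with no filter on low values, with only the 4 libraries fitted, with no trend, with quantile normalization and with receptor segments left out (each under at least 1 of them, adjusted p of 0.0504 to 0.128).

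**Figure D5:**
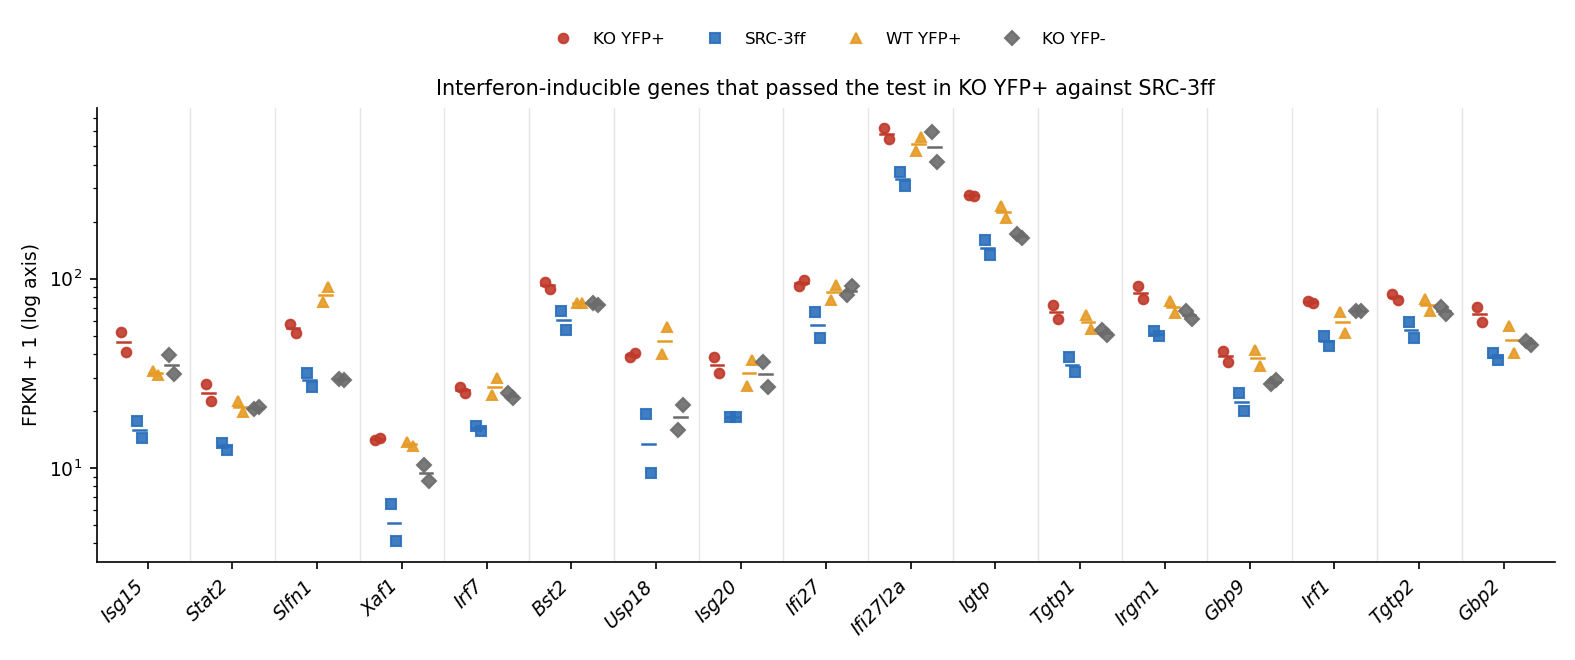
FPKM + 1 (log axis) of 17 interferon-inducible genes that were higher in KO YFP+ than in SRC-3ff, in each library. KO YFP+ lies above SRC-3ff in each of the 17 genes, with Isg15 at 16.7 and 13.4 FPKM against 51.3 and 40.0 FPKM in KO YFP+.

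The interferon-stimulated response element is the site to which STAT and IRF factors bind, and its core, GAAA followed by 2 bases of any kind and GAAA again, was searched on both strands of the same windows. It occurred in 3 of the 7 higher interferon-stimulated genes with a RefSeq promoter (Bst2, Isg15 and Stat2) and in 11 of the 28 that did not pass. In the interferon gamma list it occurred in 5 of the 6 higher genes with a promoter and in 5 of the 6 that did not pass. Of all 27025 genes with a promoter, 936 (3.46%) held it. Windows of 6 higher genes follow, with the core in capitals, where a run longer than the core is made of overlapping matches.
Isg15 (chr4:156200850-156200921, minus strand): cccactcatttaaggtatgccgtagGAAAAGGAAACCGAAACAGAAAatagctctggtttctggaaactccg
Stat2 (chr10:128270251-128270310, plus strand): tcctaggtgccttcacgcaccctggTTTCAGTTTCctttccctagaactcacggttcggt
Bst2 (chr8:71537562-71537627, minus strand): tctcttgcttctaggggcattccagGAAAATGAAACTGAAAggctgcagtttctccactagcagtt
Igtp (chr11:58199497-58199555, plus strand): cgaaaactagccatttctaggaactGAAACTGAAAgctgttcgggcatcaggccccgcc
Irgm1 (chr11:48871421-48871475, minus strand): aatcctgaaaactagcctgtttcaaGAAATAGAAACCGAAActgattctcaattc
Tgtp1 (chr11:48992289-48992348, minus strand): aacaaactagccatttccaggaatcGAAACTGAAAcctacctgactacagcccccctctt
The 3 overlapping cores of Isg15 began 78 to 66 bases before the start, and the single core of Igtp began 34 bases before it. 

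Genes of antigen presentation split by class. Of 17 measured MHC class I genes, 6 were higher and 0 lower, beside 4.15% higher among all genes. Their median log2 difference was 0.50. The immunoproteasome subunits Psmb9 (191 and 182 against 115 and 94.7 FPKM, 0.83 ± 0.11) and Psmb8 (406 and 428 against 289 and 283 FPKM, 0.54 ± 0.08) cut peptides for class I molecules, and Tap1 (94.2 and 83.9 against 61.4 and 57.2 FPKM) carries them into the endoplasmic reticulum. The nonclassical heavy chain genes H2-T22, H2-Q4 and H2-Q7 were the others, and they belong to a family of near copies in which reads may be split. H2-Q7 was at 839 and 872 against 610.4 and 532 FPKM and at 509.6 and 453 FPKM in WT YFP+. In KO YFP- it was at 847 and 756 FPKM, so SRC-3ff and WT YFP+ lay below both knockout groups. H2-Q4 was at 28.8 and 27.2 against 18.4 and 15.2 FPKM. Its levels were 83.6 and 94.9 FPKM in WT YFP+, the highest of the 4 groups, and 28.7 and 28.8 FPKM in KO YFP-. The classical H2-K1 (3142 and 3342 against 2550 and 2333 FPKM) and the light chain B2m (2609 and 2770 against 2339 and 2213 FPKM) did not pass (adjusted p = 0.0644 and 0.204). Higher calls of the class I list numbered 0, 0, 6 and 0 without KO YFP+ 84, KO YFP+ 85, SRC-3ff 68 and SRC-3ff 72 in turn. The other 9 alternatives gave 1 to 8. Adjusted p rose past the threshold for Psmb9, Psmb8, Tap1, H2-T22, H2-Q4 and H2-Q7 without KO YFP+ 84, KO YFP+ 85 or SRC-3ff 72 and for Tap1 without SRC-3ff 68 (0.0540 to 0.194). Other settings that ended calls on Psmb8, Tap1, H2-T22, H2-Q4 and H2-Q7 were fits with no filter on low values, with only the 4 libraries fitted, with no trend, with quantile normalization and with receptor segments left out (each under at least 1 of them, adjusted p of 0.0510 to 0.112).

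Of 9 measured MHC class II genes, 6 were lower and 1 was higher, beside 6.09% lower and 4.15% higher among all genes. Their median was -2.19. In 2 of the 6 lower genes both KO YFP+ libraries were under 1 FPKM, and these 2 met the filter through other groups. The class II chains H2-Ab1 (2.62 and 2.16 against 63.9 and 106 FPKM), H2-Eb1 (2.76 and 1.77 against 23.1 and 34.4 FPKM) and H2-Aa (1.32 and 2.11 against 48.6 and 74.3 FPKM) were low in KO YFP+ and high in SRC-3ff, with log2 differences of -4.62 ± 0.45, -3.18 ± 0.32 and -4.51 ± 0.56. Cd74, the invariant chain that escorts them, was at 58.1 and 47.8 against 221 and 359 FPKM. H2-DMa, a chain of the peptide exchanger, went up, at 54.5 and 56.5 against 31.9 and 32.7 FPKM (0.76 ± 0.10), beside 29.2 and 30.9 FPKM in WT YFP+ and 36.3 and 31.2 FPKM in KO YFP-. Sums of B cell, plasma cell and myeloid markers, given above, were lower in KO YFP+ in the same libraries. The part of those markers in the class II difference was not tested. H2-Ab1 and H2-Eb1 passed under all 13 alternatives. The call was lost for H2-Aa and H2-DMa without KO YFP+ 84 or SRC-3ff 72 and for H2-Aa, Cd74 and H2-DMa without KO YFP+ 85, at adjusted p of 0.0504 to 0.0661. A fit with no filter on low values also ended the call on H2-Aa (adjusted p of 0.0503).

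Effector Treg genes were lower in KO YFP+ in 19 of 35 measured members, beside 6.09% of all genes tested. The median was -1.06 with 0 higher, and 2 of the 19 lower genes were under 1 FPKM in both KO YFP+ libraries. Anxa1, an annexin of activated T cells, was at 1.38 and 1.69 FPKM in KO YFP+ 84 and 85 and at 31.8 and 54.2 FPKM in SRC-3ff 68 and 72 (-4.07 ± 0.27 (SE), adjusted p = 0.00151). Lgals3 was at 5.32 and 7.73 against 156 and 298 FPKM, S100a6 at 35.4 and 48.1 against 169 and 322 FPKM and S100a4, another calcium-binding protein of memory cells, at 44.6 and 61.01 against 170.5 and 301 FPKM. Gzmb, the granule protease granzyme B, was at 0.967 and 0.472 against 8.56 and 11.2 FPKM, and Klrg1, a receptor of terminally differentiated Tregs, was at 2.68 and 1.60 against 21.1 and 33.8 FPKM. Cd44, the adhesion receptor of activated cells, was at 19.8 and 16.9 against 48.6 and 74.7 FPKM. Anxa1 was also low in WT YFP+, at 1.17 and 0.797 FPKM, and KO YFP- was at 24.9 and 33.3 FPKM. Icos (29.997 and 30.8 against 43.5 and 64.9 FPKM), Pdcd1 (50.4 and 37.7 against 45.7 and 42.4 FPKM), Tigit (24.6 and 15.3 against 26.01 and 26.996 FPKM) and Il10 (0.619 and 0.344 against 1.19 and 0.571 FPKM) did not pass (adjusted p = 0.0521, 0.970, 0.486 and 0.548). Many of the lower genes are also used by gamma-delta, NKT and NK cells, whose markers moved with them, and that part was not tested. Lower calls numbered 10, 9, 21 and 11 without KO YFP+ 84, KO YFP+ 85, SRC-3ff 68 and SRC-3ff 72 in turn. The other 9 alternatives gave 9 to 22. Anxa1, Lgals3, S100a6 and Gzmb passed under all 13 alternatives. Significance was lost for S100a4 and Klrg1 without KO YFP+ 84, for Klrg1 and Cd44 without KO YFP+ 85 and for Klrg1 without SRC-3ff 72, at adjusted p of 0.0518 to 0.0856. Calls on S100a4, Klrg1 and Cd44 were also lost with no filter on low values (adjusted p of 0.0501 to 0.0615).

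Tissue-homing receptors followed. Of 17 measured chemokine receptor genes, 8 were lower and 1, Ccr7, was higher, beside 6.09% lower and 4.15% higher among all genes. Their median was -0.91, and 1 of the 8 lower genes was under 1 FPKM in both KO YFP+ libraries. Cxcr6 was at 4.27 and 6.34 FPKM in KO YFP+ 84 and 85 and at 153 and 295 FPKM in SRC-3ff 68 and 72 (-5.10 ± 0.37 (SE), adjusted p = 0.00166) and at 253 and 457 FPKM in KO YFP-. Cxcr3, which directs cells to sites of type 1 inflammation, was at 33.8 and 37.03 against 81.4 and 87.6 FPKM. Ccr6, a mucosal and Th17-type receptor, was at 11.1 and 14.98 against 70.97 and 118 FPKM, the gut-homing Ccr9 was at 0.553 and 0.259 against 7.12 and 5.69 FPKM and Ccr2, an inflammatory receptor, was at 1.66 and 1.65 against 19.3 and 53.8 FPKM. Cxcr4 (5.14 and 9.80 against 12.7 and 16.1 FPKM) and Ccr8 (21.1 and 14.4 against 32.4 and 30.3 FPKM) did not pass (adjusted p = 0.0902 and 0.133). Among 22 integrin and adhesion genes, 5 were lower and Itga6 was higher, beside the same shares of all genes. Itgb3 was at 7.16 and 7.68 against 25.8 and 38.7 FPKM and Itgb1 at 69.2 and 64.3 against 119 and 167 FPKM. Of 19 chemokine and cytotoxic genes, 6 were lower and 0 higher, beside 6.09% lower among all genes. In 9 of the 19, 3 of them lower, both KO YFP+ libraries were under 1 FPKM. These 9 met the filter through other groups. Ccl5 was lower (4.64 and 6.49 against 26.6 and 21.9 FPKM), as was Xcl1 (0.276 and 1.57 against 9.36 and 11.9 FPKM). Il4 was at 0.0645 and 0 against 3.15 and 5.26 FPKM. Cd44, Itgb1 and Gzmb are also counted as effector Treg genes, Itgae as a Treg identity gene, and Ccr7 and Itga6 as quiescence and homing genes. Lower calls numbered 6, 4, 7 and 5 for chemokine receptors, 3, 1, 5 and 3 for integrins and 4, 4, 6 and 3 for chemokine and cytotoxic genes without KO YFP+ 84, KO YFP+ 85, SRC-3ff 68 and SRC-3ff 72 in turn. In the same order of lists, the other 9 alternatives gave 5 to 9, 1 to 8 and 3 to 9. Cxcr6, Cxcr3, Ccr6, Ccr9, Ccl5 and Il4 passed under all 13 alternatives. The call ended for Itgb3 and Itgb1 without KO YFP+ 84, for Ccr2, Itgb3 and Itgb1 without KO YFP+ 85 and for Itgb3 and Xcl1 without SRC-3ff 72 (adjusted p of 0.0516 to 0.0894). Other settings that ended calls on Itgb1 and Xcl1 were fits with no filter on low values and with only the 4 libraries fitted (each under at least 1 of them, adjusted p of 0.0522 to 0.0607).

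Lineage factors of helper T cells were lower in 10 of 17 measured members, beside 6.09% of all genes. There was 1 higher, beside 4.15%, and the median was -0.95. Tbx21 and Zbtb16 are also counted as gamma-delta and NKT markers, Eomes as an NK marker and Prdm1 as a plasma cell marker. Rora, Gata3 and Prdm1 are also effector Treg genes, and Gata3 and Runx3 count again among the Foxp3 partners below. Markers of those other cells moved with the lineage factors, and their part was not tested. In 3 of the 10 lower genes both KO YFP+ libraries were under 1 FPKM, and these 3 met the filter through other groups. Rora, a nuclear receptor of Th17 and tissue Tregs, was at 9.86 and 10.02 FPKM in KO YFP+ 84 and 85 and at 32.1 and 44.95 FPKM in SRC-3ff 68 and 72 (-1.83 ± 0.17 (SE), adjusted p = 0.00363). Runx3, a Runt factor of Th1 and cytotoxic cells, was at 11.8 and 11.02 against 21.6 and 24.6 FPKM. Gata3, the Th2 factor, was at 34.1 and 30.4 against 57.03 and 62.3 FPKM, and Tbx21, which encodes T-bet, was at 5.10 and 4.39 against 15.03 and 20.5 FPKM. Id2, an inhibitor of E proteins in effector and innate lymphocytes, was at 35.01 and 41.5 against 247 and 377 FPKM, opposite in direction to Id3. Zbtb16, which encodes the NKT factor PLZF, was at 0.0981 and 0.0212 against 5.11 and 8.35 FPKM. Bcl6 (5.71 and 5.09 against 5.98 and 6.19 FPKM) did not pass (adjusted p = 0.520). Lower calls numbered 3, 3, 8 and 3 without KO YFP+ 84, KO YFP+ 85, SRC-3ff 68 and SRC-3ff 72 in turn. The other 9 alternatives gave 3 to 11. Rora and Runx3 passed under all 13 alternatives. Adjusted p rose past the threshold for Gata3, Tbx21, Id2 and Zbtb16 without KO YFP+ 84, KO YFP+ 85 or SRC-3ff 72 (0.0566 to 0.147). A fit with no filter on low values also ended calls on Gata3, Tbx21, Id2 and Zbtb16 (adjusted p of 0.0540 to 0.0958).

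Zmiz1, a coactivator that resembles PIAS proteins and works with Notch in T cells, was at 1.998 and 0.929 FPKM in KO YFP+ 84 and 85 and at 10.7 and 9.70 FPKM in SRC-3ff 68 and 72 (-2.22 ± 0.22 (SE), adjusted p = 0.00402). WT YFP+ was at 10.2 and 9.83 FPKM and KO YFP- at 12.6 and 10.7 FPKM, and KO YFP+ was lower than each (adjusted p = 0.00825 and 0.00385, in comparisons that share the KO YFP+ libraries). Among 32 measured Foxp3 partners and regulators, 8 were lower and 2, Foxp1 and Ikzf4, were higher. The shares of all genes were 6.09% lower and 4.15% higher. The median of the list was -0.24 and turned to 0.02 without KO YFP+ 85. Runx1, a partner of Foxp3, was at 8.15 and 9.29 against 16.9 and 16.4 FPKM, and Cbfb, the cofactor of Runx proteins, was at 20.2 and 18.7 against 28.3 and 30.6 FPKM. Smad3, which carries TGF-beta signals to the Foxp3 gene, was at 8.98 and 8.30 against 18.5 and 19.3 FPKM. Of 16 TGF-beta pathway genes 4 were lower and 0 higher, beside the same shares of all genes. Smad2 and Smad3 count both here and among the Foxp3 partners. The receptor Tgfbr1 was at 9.21 and 7.05 against 16.1 and 16.9 FPKM and the receptor Tgfbr2 at 55.7 and 49.8 against 71.7 and 73.6 FPKM. The TGF-beta list had a median of -0.10, which changed sign without KO YFP+ 85 or SRC-3ff 68. Lower calls numbered 2, 2, 5 and 3 for the partners and 1, 0, 1 and 0 for TGF-beta genes without KO YFP+ 84, KO YFP+ 85, SRC-3ff 68 and SRC-3ff 72 in turn. In the same order of lists, the other 9 alternatives gave 5 to 8 and 1 to 4. Zmiz1 passed under all 13 alternatives. The call was lost for Runx1, Cbfb, Smad3 and Tgfbr2 without KO YFP+ 84, for Runx1, Cbfb, Smad3, Tgfbr1 and Tgfbr2 without KO YFP+ 85 or SRC-3ff 72 and for Runx1, Cbfb, Tgfbr1 and Tgfbr2 without SRC-3ff 68, at adjusted p of 0.0562 to 0.195. Calls on Cbfb, Tgfbr1 and Tgfbr2 were also lost with no filter on low values, with only the 4 libraries fitted, with no trend, with the replicate block, with quantile normalization and with median-of-ratios scaling (each under at least 1 of them, adjusted p of 0.0521 to 0.0946).

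Few genes of T cell receptor or IL-2 signalling passed. Of 32 measured T cell receptor signalling genes, 2 were higher and 0 lower, close to the 4.15% of all genes, and they were Dgka, a kinase that consumes diacylglycerol (182 and 174 against 129.96 and 99.2 FPKM), and the inhibitory coreceptor Cd5 (281 and 272 against 193 and 151 FPKM). Among 19 genes of IL-2 and STAT5 signalling only Il7r passed, and Il2rb was at 206 and 166 against 279.6 and 252 FPKM (adjusted p = 0.0575). Of 23 costimulatory and checkpoint genes, Cd27 was higher (238 and 254 against 177 and 137 FPKM) and Cd160 lower (8.09 and 6.45 against 23.2 and 24.04 FPKM). Of 21 NF-kappaB genes, 0 were higher and 1, Tnfaip3, was lower. Over all genes, 4.15% were higher and 6.09% lower. The higher calls in T cell receptor signalling numbered 0, 0, 2 and 0 without KO YFP+ 84, KO YFP+ 85, SRC-3ff 68 and SRC-3ff 72 in turn. The other 9 alternatives gave 0 to 2. Significance was lost for Dgka, Cd5, Cd27 and Cd160 without KO YFP+ 84, KO YFP+ 85 or SRC-3ff 72, at adjusted p of 0.0558 to 0.211. Other settings that ended calls on Dgka, Cd5, Cd27 and Cd160 were fits with no filter on low values, with only the 4 libraries fitted, with no trend, with the replicate block and with quantile normalization (each under at least 1 of them, adjusted p of 0.0502 to 0.134).

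Ribosomal protein genes were higher in 31 of 74 measured members, beside 4.15% of all genes, with 0 lower and a median log2 difference of 0.51. Rps9 of the small subunit was at 642 and 695 against 447 and 401 FPKM (0.66 ± 0.11), and Rpl36 was at 453 and 416 against 285 and 227 FPKM (0.77 ± 0.12). The share of all FPKM in these genes was 3.87% and 3.99% for KO YFP+, 3.10% and 2.55% for SRC-3ff, 3.72% and 4.01% for WT YFP+ and 2.91% and 3.02% for KO YFP-. Many of these genes have processed copies in the genome, so single values are uncertain. Higher calls numbered 3, 2, 20 and 1 without KO YFP+ 84, KO YFP+ 85, SRC-3ff 68 and SRC-3ff 72 in turn. The other 9 alternatives gave 4 to 36. The call ended for Rps9 and Rpl36 without KO YFP+ 84, KO YFP+ 85 or SRC-3ff 72 (adjusted p of 0.0632 to 0.115). Fits with no filter on low values and with only the 4 libraries fitted also ended calls on Rps9 and Rpl36 (adjusted p of 0.0542 to 0.0662).

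Higher calls in metabolic lists were lost in most fits without 1 library. Of 43 measured oxidative phosphorylation genes 2 were higher and 0 lower, and of 25 cholesterol genes 2 were higher and 0 lower, beside 4.15% higher among all genes. In fits without 1 library the higher calls became 0 for oxidative phosphorylation and 0 or 1 for cholesterol genes. The synthase Fdps was at 30.2 and 35.7 against 22.1 and 21.9 FPKM. Among 17 glycolysis genes, Eno1, the enolase, was higher (229 and 233 against 121 and 114 FPKM), the aldolase Aldoa was higher (296 and 317 against 217 and 213 FPKM) and Pgam1 was lower (14.6 and 16.6 against 22.7 and 28.1 FPKM). Of 32 cell cycle genes, 3 were lower and 0 higher, beside 6.09% lower among all genes, with a median of -0.67, and they were the cyclin Ccnd3 (79.9 and 94.8 against 162 and 154 FPKM), the topoisomerase Top2a (3.37 and 3.13 against 10.4 and 13.1 FPKM) and the reductase subunit Rrm1 (19.1 and 15.9 against 25.98 and 31.3 FPKM). Mki67, a proliferation marker, was at 1.19 and 0.799 against 1.42 and 2.86 FPKM and did not pass (adjusted p = 0.219). Of 21 secretory and unfolded-protein genes, 7 were lower and 0 higher, beside 6.09% lower among all genes. Of the 7, 1 was under 1 FPKM in both KO YFP+ libraries and met the filter through other groups. The lower genes included the chaperones Hsp90b1 (54.5 and 62.6 against 97.3 and 125 FPKM) and Hspa5 (201 and 215 against 269 and 323 FPKM), in libraries where plasma cell markers also moved. Cell cycle lower calls numbered 0, 0, 3 and 0 and secretory lower calls numbered 0, 0, 6 and 0 without KO YFP+ 84, KO YFP+ 85, SRC-3ff 68 or SRC-3ff 72. With receptor segments left out they rose to 8 and 11, with the replicate block they were 10 and 4, and with no filter on low values 0 and 1. Adjusted p rose past the threshold for the called genes given without KO YFP+ 84, KO YFP+ 85 or SRC-3ff 72 and for Fdps, Aldoa and Ccnd3 without SRC-3ff 68 (0.0515 to 0.202). Calls on those genes were also lost with no filter on low values, with only the 4 libraries fitted, with no trend, with the replicate block, with quantile normalization and with receptor segments left out (each under at least 1 of them, adjusted p of 0.0528 to 0.184).

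Antigen receptor segments differed by locus, and over all genes tested 4.15% were higher and 6.09% lower. Of 214 tested immunoglobulin segments, 83 were lower and 1 was higher, and Igkc, the kappa constant gene, was at 262 and 338 against 2393 and 6977 FPKM. Of 23 gamma and delta T cell receptor segments, 20 were lower and 0 higher. Among these, Trgc1, Trgc2, Trgc4 and Trdc are also counted as gamma-delta and NKT markers above. Of 40 beta segments, 10 were higher and 0 lower, and of 167 alpha segments 7 were higher and 7 lower, while the alpha constant gene Trac was at 1292 and 984 against 1051 and 704 FPKM and did not pass (adjusted p = 0.270). Lower segments under 1 FPKM in both KO YFP+ libraries met the filter through other groups, and they were not counted by locus. For such segments the filter bears on the direction. Segment counts in fits without 1 library are not given. All segments together took 2.94% and 2.96% of FPKM for KO YFP+ but 4.86% and 9.38% for SRC-3ff. The call was lost for Igkc without KO YFP+ 84, KO YFP+ 85 or SRC-3ff 72, at adjusted p of 0.114 to 0.163. The one other setting that ended the call on Igkc was the fit with no filter on low values (adjusted p of 0.122).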

How the data were processed

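RNA was sequenced from 8 splenic Treg libraries in 4 groups of 2. Per the submitters' processing notes, the authors used Trim Galore, STAR and StringTie with the mouse build mm10 (GRCm38). Their versions, and whether strand was used, are not given in the sources read here. The deposited table gives StringTie gene levels in FPKM, which are scaled for transcript length and mapped fragments and keep no depth. Each library lists all 13 mitochondrial protein genes at 0, so a 0 may be a missing estimate. Gene coordinates and classes came from GENCODE M21, which matched 55227 identifiers and not the other 260, and 114 symbols occur more than once. Without strand, overlapping and antisense genes cannot be told apart.

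Genes with 1 FPKM or more in 2 or more libraries were kept (14134). limma 3.58.1 in R 4.3.3 was fitted with a trend to log2(FPKM + 1), as 4 groups over 8 libraries with 4 residual degrees of freedom. P-values were adjusted by Benjamini-Hochberg over all genes tested, with a threshold of 0.05. Lists, medians, promoter matches and figures were made in Python 3.11.15 with pandas 2.3.3, scipy 1.17.1 and matplotlib 3.10.9. The fit was first tested on simulated data.

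The genes named were Ncoa3, Foxp3, Foxp1, Fos and Isg15, the 15 largest differences in each direction among called genes with a group mean of 5 FPKM or more and no overlap (without predicted genes, pseudogenes and receptor segments), and up to 5 members with the smallest p from each of 39 gene lists. Further members named because they are well known, passing or not, were chosen after their values were seen. A few list members are counted but not reported here by name. Members and lists were chosen with earlier results of these data known. Alternatives tried were no filter, a 5 FPKM filter, a pseudocount of 0.1, median-of-ratios scaling, quantile normalization, receptor segments left out, only the 4 libraries, no trend, a replicate block and each library left out.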

Additional observations from a re-analysis of the deposited data

How the results depend on the processing

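The count of genes past the threshold, 1448 in the reported fit, fell to 567 with no filter on low values and to 537 with only the 4 libraries compared in the fit. Leaving out 1 library at a time gave 215 to 1061, with 215 without KO YFP+ 85, 229 without SRC-3ff 72, 310 without KO YFP+ 84 and 1061 without SRC-3ff 68, where the lone library of a group is assumed to vary like the other groups. With a replicate block on the numbers 84 and 85 that both knockout groups carry, 1236 genes passed, and KO YFP+ and SRC-3ff share no number that could pair them. Among the genes chosen for naming, the 130 calls became 63 with no filter, 86 with only the 4 libraries and 45 to 112 with 1 library left out. All 1448 called genes kept their sign in the alternatives that tested them. Of these, 1080 were tested in all 13 alternatives and 95 passed in all 13, while the other 368 were absent from the fit without receptor segments, the 5 FPKM filter or both, and 50 of them passed wherever tested. Among the 130 named calls, 36 of 120 tested in all 13 passed in all, and 6 of the other 10 passed wherever tested. Why calls were lost was not tested, beyond the smaller number of libraries or the larger number of genes tested in those fits.

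Some genes that did not pass changed sign near 0. With receptor segments left out and each library rescaled, the log2 differences were -0.0071 for S1pr1, -0.0065 for Tcf7, -0.033 for Nr4a1, -0.046 for Nfkbia, -0.028 for Ifnar1 and -0.058 for Ifnar2. Quantile normalization gave -0.042 for Tcf7 and -0.034 for Nfkbia, and median-of-ratios scaling gave 0.0089 for Il2ra. With 1 library left out, the differences ran from -0.18 to 0.18 for Il2ra, -0.12 to 0.31 for Tcf7, -0.17 to 0.30 for Nr4a1, -0.044 to 0.15 for Nfkbia, -0.079 to 0.22 for Ifnar1, -0.15 to 0.23 for Ifnar2 and -0.22 to 0.19 for Pdcd1. FPKM carry no depth, so low values cannot be given a counting error.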

Other observations

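A few genes outside the lists, picked with their values in view, are given here. Fkbp5, a glucocorticoid-induced immunophilin, was at 12.6 and 12.5 FPKM in KO YFP+ 84 and 85, 38.1 and 44.2 FPKM in SRC-3ff 68 and 72, 12.3 and 11.8 FPKM in WT YFP+ and 28.05 and 26.7 FPKM in KO YFP- (-1.63 ± 0.11 (SE), limma adjusted p = 0.00151). Nr1d1, the clock repressor REV-ERB alpha, had the same order of groups, with 4.86 and 4.82 FPKM in KO YFP+ and 22.02 and 32.8 FPKM in SRC-3ff (-2.26 ± 0.20 (SE), limma adjusted p = 0.00325). Hdac1, a histone deacetylase, went the other way, at 54.2 and 58.6 FPKM in KO YFP+ and 23.7 and 24.8 FPKM in SRC-3ff (1.18 ± 0.12 (SE)). Cd7, an immunoglobulin-family receptor of T and NK cells, was at 30.04 and 33.3 FPKM in KO YFP+ and 137 and 215 FPKM in SRC-3ff.

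Tcea1, a transcription elongation factor, was low in KO YFP+ alone, at 3.89 and 4.06 FPKM beside 16.3 and 17.6 FPKM in SRC-3ff, 14.1 and 15.5 FPKM in WT YFP+ and 14.6 and 15.8 FPKM in KO YFP-. A different set was high in SRC-3ff alone, and its members met the filter on low values through the SRC-3ff libraries only, so the filter fixed their direction. Kit, the receptor for stem cell factor, was at 7.46 and 7.81 FPKM in SRC-3ff, 0.334 and 0.224 FPKM in KO YFP+, 0.795 and 0.679 FPKM in WT YFP+ and 0.611 and 0.992 FPKM in KO YFP-. Cntn1, a neural adhesion molecule, was at 5.204 and 5.89 FPKM in SRC-3ff and at most 0.0558 FPKM in any other library. Upp1, a uridine phosphorylase, and the chemokine gene Cx3cl1 had the same pattern, with 6.66 and 5.87 FPKM and with 5.098 and 5.92 FPKM in SRC-3ff.

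Calls differed in direction between annotated gene classes. Of 1978 processed pseudogenes tested, KO YFP+ was higher in 235 (11.9%) and lower in 21 (1.06%), and of 10224 protein-coding genes it was higher in 284 (2.78%) and lower in 698 (6.83%), beside 4.15% higher and 6.09% lower over all genes. The 235 became 28, 16, 158 and 10 without KO YFP+ 84, KO YFP+ 85, SRC-3ff 68 and SRC-3ff 72 in turn, 50 with no filter, 65 with only the 4 libraries and 142 with no trend, while the protein-coding 284 became 25, 18, 185 and 17 in the same 4 fits. Pseudogene values can hold reads of the parent genes, and their part in the higher calls was not tested.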
